A study of Mus musculus with 4 samples.

Results

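The general mRNA decay machinery, outside the CCR4-NOT complex itself, was followed in the livers of fasted Cnot3+/- and wild-type mice through 52 listed genes. They fall into 8 groups by role: microRNA effectors, decapping factors, exonucleases that work from the 5′ end, the Lsm ring, the RNA exosome, the other deadenylases with the poly(A)-binding proteins, factors of nonsense-mediated decay, and mRNA-binding regulators of stability. A gene was included where at least 1 probe set of the array is annotated with its symbol and no other. This held for 50 of the 52 genes, through 123 of 45101 probe sets. Lsm5 and Upf3b had no such probe set and were not analysed here. All 50 passed the filter on dim probe sets, which used the mean over both genotypes, and they make up 50 of the 13379 genes tested.

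In the cytoplasm most mRNAs are taken apart in a fixed order. Deadenylases, chiefly CCR4-NOT with help from PAN2-PAN3, first shorten the poly(A) tail. The shortened message is then either decapped and digested from its 5′ end by XRN1, or digested from its 3′ end by the RNA exosome. MicroRNA complexes and proteins that bind AU-rich elements feed chosen mRNAs into this route by recruiting CCR4-NOT, of which CNOT3 is a subunit. In liver, this machinery sets how long the messages of metabolic enzymes and secreted proteins last.

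The study compared 2 mice labelled Cnot3+/- with 2 wild-type mice, all male C57BL/6J animals aged 12 weeks, fed normal chow and then deprived of food for 24 h. Each liver gave 1 one-colour Affymetrix array of biotin-labelled cRNA, and the arrays are called Cnot3+/- 1, Cnot3+/- 2, wild-type 1 and wild-type 2 after their labels. By their label the Cnot3+/- mice carry 1 altered copy of Cnot3, and the labels do not describe the allele further. Values are log2 expression values per probe set, so a difference of 1 is a factor of 2, and each difference is Cnot3+/- minus wild-type.

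The arrays held similar value distributions, with medians between 4.62 and 4.66. Cnot3 itself stood at 7.70 and 7.86 in Cnot3+/- 1 and 2, against 7.48 and 8.14 in wild-type 1 and 2, a difference of -0.03 with a 95% interval from -0.66 to 0.60. On this probe set the genotypes could not be told apart. A dimmer second probe set of Cnot3 stood at 5.54 and 5.54 in Cnot3+/- 1 and 2, against 5.33 and 5.52 in wild-type 1 and 2. Its difference was 0.11, with both Cnot3+/- values above both wild-type values. The Cnot3 level thus gave no sign of a lost copy, and Cnot3+/- is used as the label of those arrays throughout. Where the probes lie relative to the altered part of the gene is not given in the labels. The 9 hepatocyte markers tested were bright in all 4 livers, with Alb between 14.80 and 14.87. Set against their wild-type mean they averaged 0.20 and 0.07 in Cnot3+/- 1 and 2, and -0.11 and 0.11 in wild-type 1 and 2, and wild-type 1 had the lowest value for 7 of the 9. The widest apart was Tat, a tyrosine-degrading enzyme, at 13.27 and 12.97 in Cnot3+/- 1 and 2, against 12.19 and 12.91 in wild-type 1 and 2. Macrophage and endothelial markers differed between the Cnot3+/- arrays, and the genes of each list also lay on 1 side of wild-type by mean difference. Set against their wild-type mean, the 13 macrophage genes averaged -0.28 in Cnot3+/- 1 and 1.73 in Cnot3+/- 2, and -0.10 and 0.10 in wild-type 1 and 2. The 10 endothelial genes averaged -1.02 and -0.13 in Cnot3+/- 1 and 2, and -0.07 and 0.07 in wild-type 1 and 2. By mean difference all 13 macrophage genes were higher in Cnot3+/-, 3 without overlap (23.1%, against 14.1% of all genes). All 10 endothelial genes were lower, 6 without overlap (60%, against 17.4%). The other lists had 5 of 9 neutrophil, 5 of 8 lymphocyte, 4 of 9 stellate and 3 of 3 cholangiocyte genes on the higher side. In whole liver, fewer cells of a type and less RNA per cell cannot be told apart.

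No decay factor passed the test. Of the 50 genes, 0 had an adjusted p below 0.05 in limma in either direction, where 0.0149% of all genes were called higher and 0% lower. The smallest adjusted p among them was 0.999. At an unadjusted p under 0.05 there was 1 gene on the higher side, Tnrc6c, and 0 on the lower side, where 1.73% of all genes were higher and 1.85% lower (3.59% in either direction). On the probe sets used, the differences ran from -0.37 for Lsm6 to 0.46 for Tnrc6b. Among the 50, 0 reached 0.5 in size, a size that 4.47% of all genes reached. The median absolute difference was 0.14 over the 50 genes, against 0.12 over all genes. Other probe sets of Tnrc6c, Pum2 and Ddx6 passed 0.5, at 0.54, 0.53 and 0.51. For the probe set used for each gene, the 95% confidence intervals of 47 of 50 excluded a change by a factor of 2 in either direction. Those of 28 of 50 excluded a change by a factor of 1.5. The 3 whose intervals reached beyond a factor of 2 were Tnrc6b (upper bound 1.06), Lsm6 (lower bound -1.09) and Xrn1 (lower bound -1.13). These bounds do not cover a gene's other probe sets, some of which were less precise, such as Ddx6 at 0.51 (SE 0.30) and Smg1 at 0.31 (SE 0.37).

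**Figure D1:**
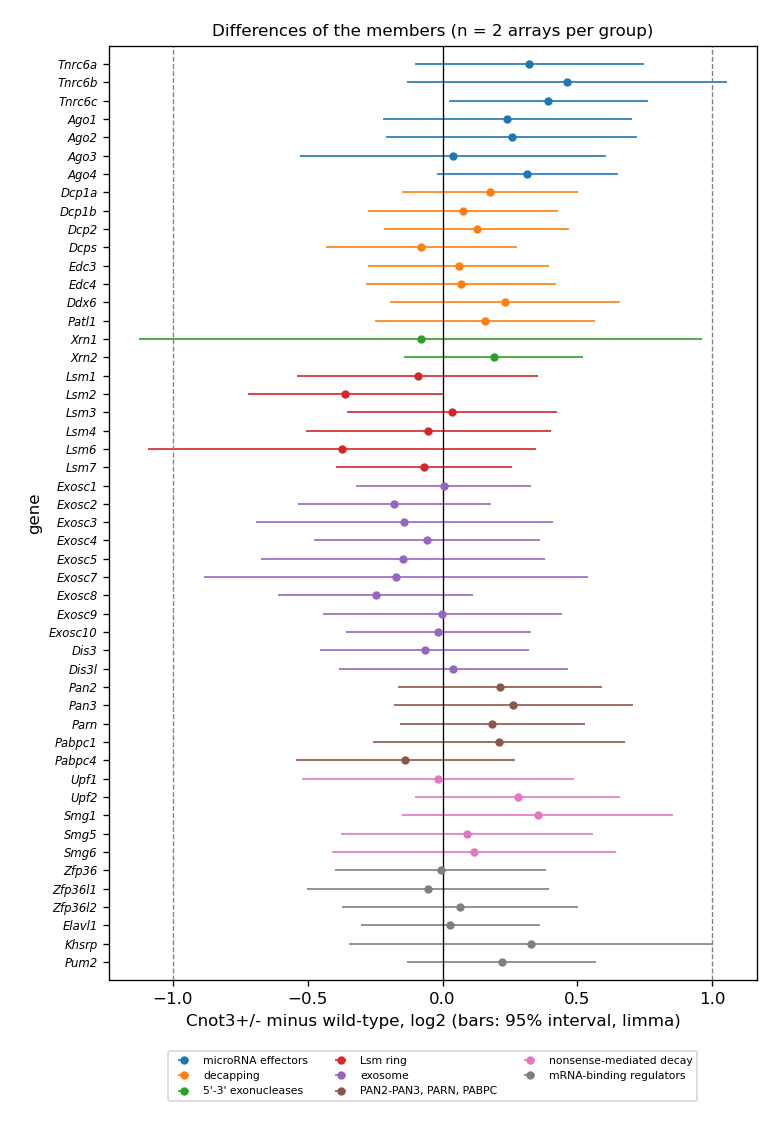
Difference of each of the 50 genes between Cnot3+/- and wild-type livers on the log2 scale, 1 row a gene, coloured by role; points are limma estimates from 2 arrays per group, bars are 95% confidence intervals, and dashed lines mark a factor of 2. The interval of Tnrc6c alone lies wholly on 1 side of 0, and the points run from -0.37 to 0.46.

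Within these limits the values were not spread evenly over the roles. Over the 50 genes, 30 were higher in Cnot3+/- and 20 lower, where 47.9% of all genes were higher, and the median difference was 0.05, against -0.01 over all genes. Both Cnot3+/- arrays stood above both wild-type arrays for 15 genes (30.0%, against 14.1% of all genes), and below both for 4 genes (8.0%, against 17.4%). All 7 microRNA effectors and 7 of 8 decapping factors were on the higher side. In contrast, 9 of 11 exosome genes and 5 of 6 Lsm genes were on the lower side. Median differences by role were 0.31 for the microRNA effectors, 0.21 for the other deadenylases and poly(A)-binding proteins, 0.12 for nonsense-mediated decay, 0.10 for decapping, 0.05 for the mRNA-binding regulators, -0.07 for the exosome and -0.08 for the Lsm ring. Without wild-type 1 the medians were 0.15 for the microRNA effectors, 0.07 for the other deadenylases and poly(A)-binding proteins, and 0.05 for decapping. Those of nonsense-mediated decay and the mRNA-binding regulators turned to -0.11 and -0.05, that of the exosome to 0.06, and that of the Lsm ring was -0.01. These medians and counts are descriptions with no test.

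The same division ran between the wild-type animals, with wild-type 1 apart from the other 3 livers. Wild-type 1 had the lowest of the 4 values for 27 of the 50 genes (54.0%) and the highest for 14 (28.0%), where it was lowest for 27.4% and highest for 29.6% of all genes. It was lowest for all 7 microRNA effectors and all 5 factors of nonsense-mediated decay, and highest for 8 of 11 exosome genes and 5 of 6 Lsm genes. The distance between arrays gives the same order. Over the 50 genes the median absolute difference was 0.13 between Cnot3+/- 1 and Cnot3+/- 2, 0.17 between Cnot3+/- 1 and wild-type 2, and 0.09 between Cnot3+/- 2 and wild-type 2. It was 0.26 and 0.27 between wild-type 1 and the Cnot3+/- arrays, and 0.24 between wild-type 1 and wild-type 2. Cnot3+/- 2 and wild-type 2 were thus the closest pair, although they differ in genotype. Over all genes this pair was also the closest, at 0.14, and the distance was 0.18 between the Cnot3+/- arrays, 0.17 and 0.21 between them and wild-type 1, and 0.18 between the wild-type arrays.

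**Figure D2:**
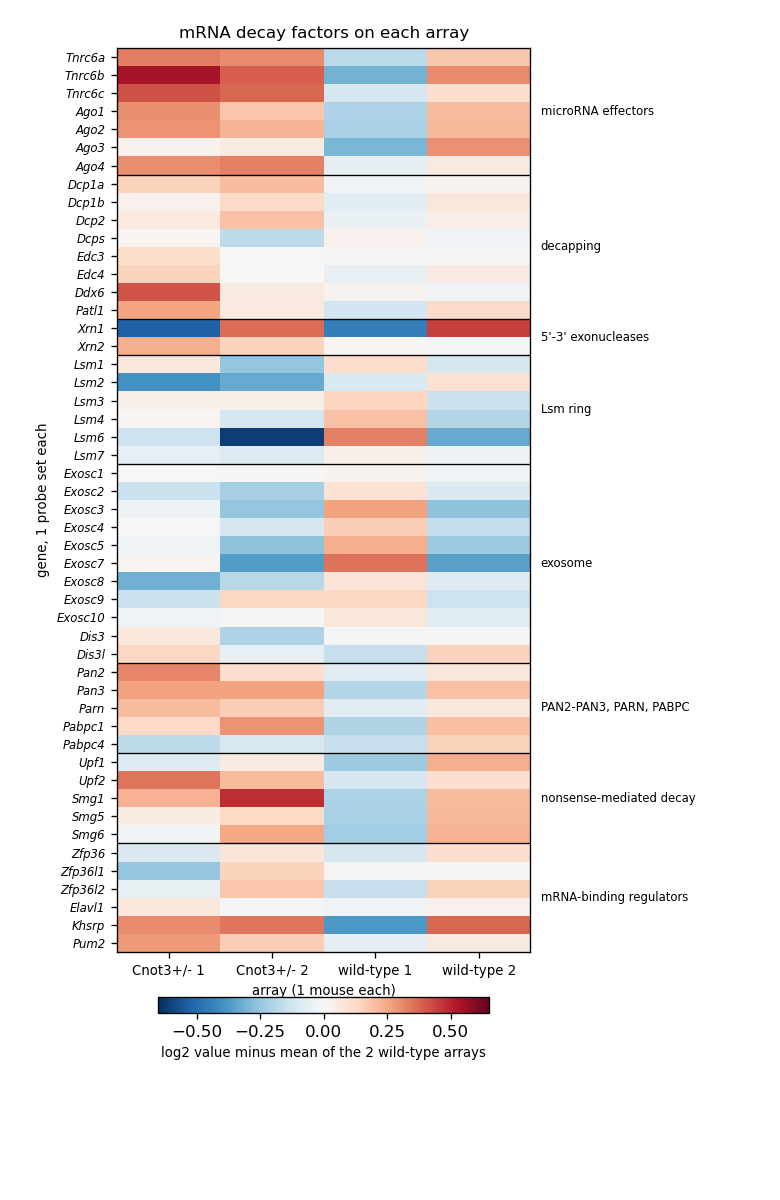
Each of the 50 genes on each array, as its log2 value minus the mean of the 2 wild-type arrays (red higher, blue lower), grouped by role. The microRNA effectors are low in wild-type 1 and above the wild-type mean in both Cnot3+/- arrays, and most exosome and Lsm genes are high in wild-type 1.

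**Figure D3:**
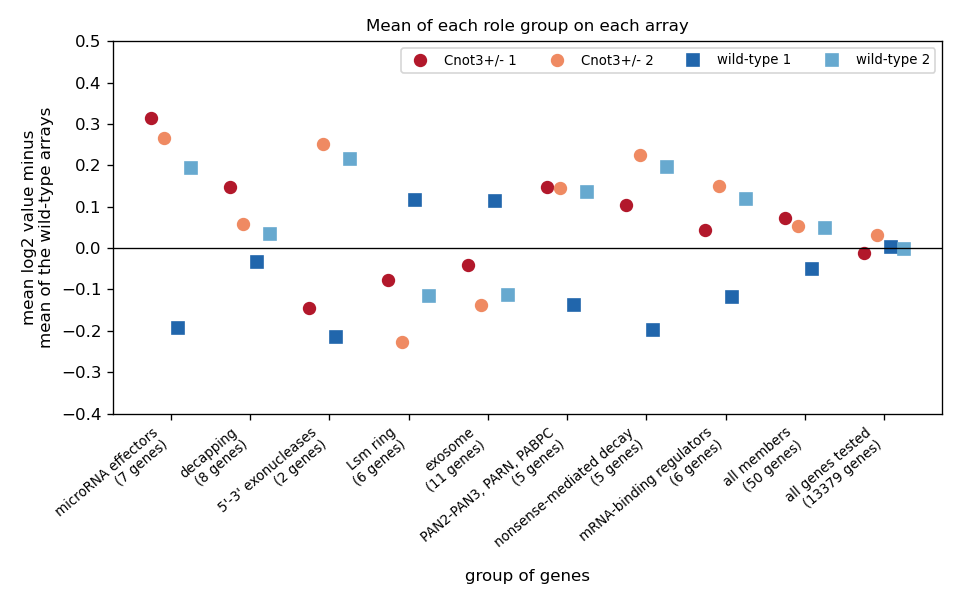
Mean log2 value of each role group on each array relative to the wild-type mean, with Cnot3+/- arrays as circles and wild-type arrays as squares. For the microRNA effectors the Cnot3+/- arrays lie at 0.31 and 0.27 and wild-type 2 at 0.19; over all genes tested the 4 arrays lie between -0.01 and 0.03.

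Among the microRNA effectors, the Tnrc6 genes had the highest differences. Their proteins are scaffolds that hold an Argonaute loaded with a microRNA and recruit CCR4-NOT and PAN2-PAN3 to its target. Tnrc6b stood at 7.71 and 7.57 in Cnot3+/- 1 and 2, against 6.87 and 7.48 in wild-type 1 and 2, a difference of 0.46 (SE 0.23, n = 2 per group). Both Cnot3+/- values exceeded both wild-type values, but wild-type 2 lay much closer to them than to wild-type 1. Tnrc6c stood at 7.12 and 7.08 in Cnot3+/- livers, against 6.60 and 6.82 in wild-type livers. Its difference was 0.39 (SE 0.14), with a 95% interval from 0.02 to 0.76 and an unadjusted p of 0.0407. The interval leaves out 0, while the limma adjusted p was 0.999. Tnrc6a stood at 9.21 and 9.19 in Cnot3+/- livers, against 8.71 and 9.05 in wild-type livers, a difference of 0.32 (SE 0.17). For all 3 genes the Cnot3+/- livers lay closer to each other than the wild-type livers did, and the groups did not overlap.

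Leaving out wild-type 1 lowered these differences, to 0.16 for Tnrc6b, 0.28 for Tnrc6c and 0.15 for Tnrc6a, and leaving out wild-type 2 raised them to 0.77, 0.50 and 0.50. The sign held in each case. The hepatocyte markers, like the Tnrc6 genes, were lowest in wild-type 1 for most genes, while the macrophage and endothelial markers differed mainly between the Cnot3+/- arrays. The differences of the hepatocyte markers were uneven, from -0.08 for Ttr to 0.56 for Tat, with a median of 0.09 and Alb at 0.02. The part of cell makeup in the Tnrc6 differences was not tested.

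The Argonaute genes encode the proteins that bind the microRNA, and of these Argonaute 2 can also cut a target. Ago4 stood at 4.82 and 4.85 in Cnot3+/- livers, against 4.46 and 4.58 in wild-type livers, a difference of 0.31 (SE 0.13) without overlap. Ago2 differed by 0.26 (SE 0.18), also without overlap although wild-type 2 lay next to the Cnot3+/- values. The other probe sets of Ago2, including the brightest, all overlapped. Ago1 differed by 0.24 (SE 0.18) with overlap. Ago3 differed by 0.04 (SE 0.22), with wild-type 2 the highest of its 4 values. Without wild-type 1, 6 of the 7 microRNA effectors remained on the higher side, Ago3 being the exception.

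Most of these genes are read by several probe sets. Of the 25 probe sets of the microRNA effectors above the brightness filter, 22 were higher in Cnot3+/-, against 48.7% of all such probe sets with 1 symbol. All 8 probe sets of Tnrc6a, all 3 of Tnrc6b and all 4 of Ago2 were higher. The second probe set of Tnrc6c differed by 0.54, and the dimmest one by -0.05. Ago4 differed by -0.01 on its other probe set, and Ago3 by values between -0.02 and 0.15 on its 4. Over the 50 genes, 30 had 2 or more probe sets above the filter. In 15 of these all probe sets lay on the same side of 0, and in 15 they lay on both.

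**Figure D4:**
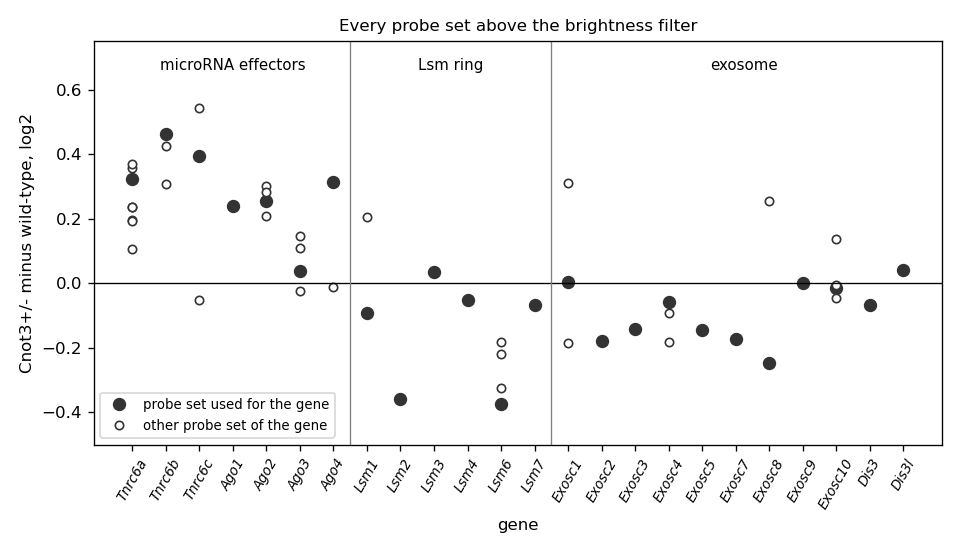
Difference between Cnot3+/- and wild-type livers on the log2 scale for every probe set above the brightness filter, for the microRNA effectors, the Lsm ring and the exosome; filled points are the probe sets used for the genes and open points the others. Of 25 probe sets of the microRNA effectors 22 lie above 0, and of 10 Lsm and 19 exosome probe sets 8 and 14 lie below it.

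The promoters of the 3 Tnrc6 genes are shown because these paralogs lay on the same side in both Cnot3+/- livers. The sequences are the 250 bases before the first listed start site in RefSeq, build GRCm38.p6, at chr7:123123635-123123884 (plus strand) for Tnrc6a, chr15:80711063-80711312 (plus strand) for Tnrc6b and chr11:117654039-117654288 (plus strand) for Tnrc6c. Capitals mark matches, on either strand, to 6 motifs. They are the SP1 motif GGGCGG and the motif CCGGAAG of the ETS family of factors, the CCAAT box bound by NF-Y and the TATA box spelled TATAAA in this search, and the cyclic AMP response element TGACGTCA along with the YY1 motif AAGATGGC as the last of them, and none of these contains another.
Tnrc6a: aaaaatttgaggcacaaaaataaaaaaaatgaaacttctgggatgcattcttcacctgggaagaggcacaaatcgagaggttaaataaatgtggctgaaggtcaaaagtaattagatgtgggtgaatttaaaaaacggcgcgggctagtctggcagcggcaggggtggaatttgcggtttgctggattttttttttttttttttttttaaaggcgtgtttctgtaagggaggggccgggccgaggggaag
Tnrc6b: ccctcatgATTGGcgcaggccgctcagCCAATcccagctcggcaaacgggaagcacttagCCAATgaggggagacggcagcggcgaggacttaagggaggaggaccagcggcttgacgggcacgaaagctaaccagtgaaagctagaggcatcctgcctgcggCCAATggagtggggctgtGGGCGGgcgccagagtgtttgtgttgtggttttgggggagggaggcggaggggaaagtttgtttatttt
Tnrc6c: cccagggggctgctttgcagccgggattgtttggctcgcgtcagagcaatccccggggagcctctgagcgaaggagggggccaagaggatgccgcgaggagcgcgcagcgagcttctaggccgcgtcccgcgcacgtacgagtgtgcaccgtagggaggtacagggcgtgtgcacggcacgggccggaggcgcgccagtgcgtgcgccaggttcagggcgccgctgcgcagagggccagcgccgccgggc

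Their base composition differed widely, with 42.4% G and C in the Tnrc6a window, 72.4% in that of Tnrc6c and an intermediate share in that of Tnrc6b. The Tnrc6b window held 4 CCAAT matches and 1 GGGCGG match, and the other two held none of the 6 motifs. Over all listed genes, 43 of 52 had a promoter in the table, 7 of them with more than 1 start site. GGGCGG was found in 28 of these 43 windows (65.1%), against 32.9% of the 27025 genes in the table. TATAAA was found in 2 (4.65%), against 13.0%. The 43 windows were also richer in G and C, with a median of 63.2% and 22 CG pairs, against 52.0% and 6 over the table. The motif shares were not adjusted for this, and the table is not limited to the genes tested. Whether they go beyond base composition was not tested.

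The decapping factors leaned to the higher side by small amounts. Ddx6, a helicase that binds CCR4-NOT and the decapping factors, stood at 8.46 and 8.11 in Cnot3+/- livers, against 8.08 and 8.03 in wild-type livers. The difference was 0.23 (SE 0.17), and Cnot3+/- 1 stood apart above the other 3 values, without which it was 0.06. Its 3 probe sets above the filter gave 0.23, 0.51 and 0.18, the other 2 with overlap. Dcp1a, an activator of the decapping enzyme, stood at 5.83 and 5.87 in Cnot3+/- livers, against 5.65 and 5.70 in wild-type livers, a difference of 0.18 (SE 0.13). Here the groups were separated and the replicates lay close together, but a dimmer probe set of Dcp1a differed by -0.00451. Patl1, which links tail shortening to decapping, stood at 7.59 and 7.40 in Cnot3+/- livers, against 7.21 and 7.46 in wild-type livers, and its groups overlapped. Dcp2, the enzyme that removes the cap, differed by 0.13 (SE 0.13). The enhancers Edc3 and Edc4 differed by 0.06 (SE 0.13) and 0.07 (SE 0.14) and Dcp1b by 0.07 (SE 0.14). Dcps, which breaks down the cap left over from decay at the 3′ end, was the member on the lower side, at -0.08 (SE 0.14).

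Of the exonucleases that digest from the 5′ end, Xrn1 acts mainly in the cytoplasm and Xrn2 in the nucleus. Xrn2 stood at 7.68 and 7.58 in Cnot3+/- livers, against 7.46 and 7.43 in wild-type livers, a difference of 0.19 (SE 0.13) without overlap. A second probe set of Xrn2, nearly as bright, showed no such separation, at 7.34 and 7.39 in Cnot3+/- livers, against 7.37 and 7.36 in wild-type livers, and the dimmest differed by 0.03. Xrn1 stood at 5.46 and 6.35 in Cnot3+/- livers, against 5.54 and 6.43 in wild-type livers. The replicates of each genotype lay 0.89 apart, so the difference of -0.08 (SE 0.41) is the least precise of the 50. On its second probe set Xrn1 stood at 5.60 and 5.72 in Cnot3+/- livers, against 4.98 and 5.48 in wild-type livers, a difference of 0.43 with no overlap. The probe sets of Xrn1 therefore gave opposite signs.

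The Lsm proteins form a ring that binds the shortened tail and promotes decapping, and most of them also serve in a nuclear ring that acts in splicing. Of 6 Lsm genes tested, 5 were lower in Cnot3+/-. Lsm6 stood at 7.89 and 7.41 in Cnot3+/- livers, against 8.35 and 7.69 in wild-type livers, a difference of -0.37 (SE 0.28). Cnot3+/- 1 lay between the wild-type values, so the groups overlapped, and the difference was -0.05 without wild-type 1 and -0.70 without wild-type 2. All 4 probe sets of Lsm6 were lower, between -0.37 and -0.18. Lsm2 stood at 5.78 and 5.85 in Cnot3+/- livers, against 6.07 and 6.28 in wild-type livers, a difference of -0.36 (SE 0.14) with a 95% interval from -0.72 to 0.00309. Its groups were separated, and Lsm2 was the one Lsm gene for which wild-type 1 was not the highest of the 4 values. Lsm7 also did not overlap, at -0.07 (SE 0.13). Lsm1, the subunit found in the cytoplasmic ring alone, stood at 8.09 and 7.77 in Cnot3+/- livers, against 8.13 and 7.91 in wild-type livers, and its dim second probe set differed by 0.21 in the other direction. Lsm4 and Lsm3 differed by -0.05 (SE 0.18) and 0.03 (SE 0.15). Without wild-type 1, 3 of the 6 Lsm genes were on the higher side, and without Cnot3+/- 2 also 3.

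The RNA exosome is a barrel of core subunits with a cap, to which the nucleases Dis3, Dis3l and Exosc10 attach. Exosc8, a core subunit, stood at 7.64 and 7.77 in Cnot3+/- livers, against 8.04 and 7.87 in wild-type livers, a difference of -0.25 (SE 0.14). The groups did not overlap on this probe set, but a dimmer one differed by 0.26 in the other direction. Exosc2, a cap subunit, stood at 7.21 and 7.13 in Cnot3+/- livers, against 7.44 and 7.25 in wild-type livers, and likewise did not overlap, at -0.18 (SE 0.14). Exosc7, another core subunit, stood at 8.88 and 8.50 in Cnot3+/- livers, against 9.22 and 8.51 in wild-type livers. The wild-type pair here spanned the whole range of the 4 arrays but for 0.01, and the difference was -0.17 (SE 0.28). Exosc5 and Exosc3 differed by -0.15 (SE 0.21) and -0.14 (SE 0.22), Exosc4 by -0.06 (SE 0.17), and Exosc1, Exosc9 and Exosc10 by less than their smallest SE of 0.13. The probe sets of Exosc1 ran from -0.18 to 0.31 and those of Exosc10 from -0.05 to 0.14, so both genes had probe sets of either sign. The nuclease genes Dis3 and Dis3l differed by -0.07 (SE 0.15) and 0.04 (SE 0.17). The lean of the exosome genes turned without wild-type 1 and weakened without Cnot3+/- 2. Without wild-type 1, 7 of 11 were on the higher side, with a median of 0.06, and without wild-type 2 only 1 was, with a median of -0.22. Without Cnot3+/- 2, 5 of 11 were on the higher side, with a median of -0.03. Exosc8 and Exosc2 stayed on the lower side with any 1 array left out.

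Promoters of Lsm6 and Exosc8, the members of largest negative difference in their groups, are given for comparison with those of the Tnrc6 genes. They are the 250 bases before the start site at chr8:78821153-78821402 (minus strand) and chr3:54735365-54735614 (minus strand), from the same table and with the same motifs in capitals.
Lsm6: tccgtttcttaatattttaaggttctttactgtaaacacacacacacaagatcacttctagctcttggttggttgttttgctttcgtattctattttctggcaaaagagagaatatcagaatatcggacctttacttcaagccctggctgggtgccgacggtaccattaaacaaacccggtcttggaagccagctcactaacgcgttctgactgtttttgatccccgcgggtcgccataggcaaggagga
Exosc8: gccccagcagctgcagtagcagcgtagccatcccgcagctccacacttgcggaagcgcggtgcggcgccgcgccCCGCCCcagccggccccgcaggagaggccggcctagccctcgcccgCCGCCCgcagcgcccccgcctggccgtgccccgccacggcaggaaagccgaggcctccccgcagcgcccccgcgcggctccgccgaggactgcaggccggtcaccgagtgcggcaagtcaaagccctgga

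The Lsm6 window, with 44.8% G and C, held none of the motifs. The Exosc8 window, with 78.0%, held 2 GGGCGG matches, and over the exosome genes 7 of 9 windows held at least 1. For the microRNA effectors the count was 4 of 6.

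Among the other deadenylases, Pan3, the adaptor through which PAN2 meets its targets, stood at 5.87 and 5.87 in Cnot3+/- livers, against 5.41 and 5.80 in wild-type livers. The difference was 0.26 (SE 0.17), and without wild-type 1 it was 0.07. The other probe sets of Pan3 above the filter gave 0.41 and -0.29, each without overlap and so in opposite directions. Pan2, the nuclease of the pair, stood at 6.40 and 6.19 in Cnot3+/- livers, against 6.01 and 6.16 in wild-type livers, a difference of 0.21 (SE 0.15). Parn, a deadenylase acting mostly on non-coding RNAs, differed by 0.18 (SE 0.13). On the probe sets used, these 3 of 5 genes were higher without overlap (60%, against 14.1% of all genes). The nearest arrays of Pan2 lay 0.04 apart. On a brighter probe set, a kind that can match several transcripts, Parn differed by 0.12 with overlap. Pabpc1, the main protein coating the poly(A) tail, stood at 11.58 and 11.75 in Cnot3+/- livers, against 11.26 and 11.66 in wild-type livers, with overlapping groups and a difference of 0.01 without wild-type 1. Its paralog Pabpc4 differed by -0.14 (SE 0.16), and by 0.01 on its brighter probe set, a kind that can match several transcripts.

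In nonsense-mediated decay, which removes mRNAs with early stop codons, Smg1 had the largest difference. Smg1 encodes the kinase that phosphorylates UPF1, and stood at 7.63 and 7.89 in Cnot3+/- livers, against 7.20 and 7.62 in wild-type livers, a difference of 0.35 (SE 0.20). The lower Cnot3+/- value and the higher wild-type value were 0.02 apart, and without wild-type 1 the difference was 0.15. Upf2, which joins UPF1 to the exon junction complex, stood at 7.85 and 7.71 in Cnot3+/- livers, against 7.40 and 7.61 in wild-type livers, a difference of 0.28 (SE 0.15). Smg6, the endonuclease of the pathway, stood at 6.40 and 6.68 in Cnot3+/- livers, against 6.20 and 6.65 in wild-type livers. A second probe set of Smg6, close to the brightness filter, differed by 0.41 without overlap. Smg5 differed by 0.09 (SE 0.18) and by -0.18 on its dimmer probe set, and the helicase gene Upf1 by -0.02 (SE 0.20). Without wild-type 1, 2 of the 5 genes were on the higher side instead of 4.

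The mRNA-binding regulators that recruit CCR4-NOT to AU-rich elements lay near wild-type. Zfp36, which encodes tristetraprolin, stood at 8.67 and 8.84 in Cnot3+/- livers, against 8.66 and 8.87 in wild-type livers, a difference of -0.01 (SE 0.15). Zfp36l1 differed by -0.05 (SE 0.18), and by 0.22 on its second probe set. Zfp36l2 stood at 9.74 and 9.97 in Cnot3+/- livers, against 9.64 and 9.94 in wild-type livers, a difference of 0.06 (SE 0.17), and its other probe sets gave -0.01 and -0.26. For Zfp36 and Zfp36l2 the second-numbered animal was the higher in both genotypes. Cnot3+/- 2 had the highest value for 11 of 14 immediate early genes (78.6%, against 25.1% of all genes). Zfp36 itself was highest in wild-type 2. Elavl1, whose protein HuR stabilises mRNAs, differed by 0.03 (SE 0.13), and by -0.29 on a dim probe set.

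Khsrp, which promotes decay of mRNAs with AU-rich elements, stood at 5.43 and 5.47 in Cnot3+/- livers, against 4.75 and 5.50 in wild-type livers. On this probe set wild-type 1 was low and wild-type 2 highest, so the difference of 0.33 (SE 0.26) turned to -0.05 without wild-type 1. Brighter probe sets of Khsrp, of a kind that can match several transcripts, gave 0.11 with overlap and 0.35 without. Pum2, a Pumilio protein that binds mRNAs at a short motif and recruits CCR4-NOT, stood at 8.52 and 8.40 in Cnot3+/- livers, against 8.18 and 8.30 in wild-type livers. The difference was 0.22 (SE 0.14) without overlap. Its 3 probe sets above the filter gave 0.22, 0.32 and 0.53, each with both Cnot3+/- livers above both wild-type livers.

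Of 46 further listed decay factors, 38 were tested, and 0 passed the test. There were 24 higher and 14 lower, with a median of 0.07. The groups did not overlap for 9 higher genes (23.7%, against 14.1% of all genes) and 3 lower genes (7.89%, against 17.4%). Dis3l2, a nuclease that digests RNAs tagged with uridines, stood at 5.47 and 5.63 in Cnot3+/- livers, against 5.04 and 5.14 in wild-type livers, a difference of 0.46 (SE 0.14, limma adjusted p = 0.999). Pnrc1 stood at 10.68 and 10.65 in Cnot3+/- livers, against 10.28 and 10.31 in wild-type livers, a difference of 0.37 (SE 0.13). In both genes the replicates lay close together and apart from the other genotype. With any 1 array left out the differences stayed at or above 0.38 for Dis3l2 and 0.36 for Pnrc1. Eif4a3, a core factor of the exon junction complex, differed by -0.39 (SE 0.15) on a dim probe set. Xpo5, the exporter of microRNA precursors, differed by 0.33 (SE 0.17), Helz by 0.33 (SE 0.13) and Gigyf2, a translational repressor, by 0.31 (SE 0.16), which turned to -0.17 when the probe sets of Gigyf2 were averaged.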

How the data were processed

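Liver RNA of 2 Cnot3+/- and 2 wild-type mice was measured on 1 array each. The authors' deposited values are on the log2 scale, judging by their range, and come from RMA according to the submitters' processing notes. This method subtracts background, puts arrays on a common distribution and combines the probes of each set, and it compresses differences of dim probe sets. Neither its version nor which arrays entered it together was stated. Probe sets were named from the platform annotation, where 34958 of 45101 have 1 symbol.

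The deposited values were used as they are. Nothing says whether the animals were littermates. The p-values set each difference against the spread between these samples, moderated by that of all genes tested. The 40% of probe sets with the lowest mean (below 4.06) were left out. Each gene was represented by its brightest probe set, with _x_at or _s_at kinds used only where there was no other, which gave 13379 genes. Near-identical transcripts cannot be separated by such probes. Groups were compared with limma 3.58.1 in R 4.3.3 (lmFit, eBayes, two-sided, no covariate) with Benjamini-Hochberg adjustment over all genes and a threshold of 0.05. SE is the moderated standard error. The fit has 2 residual degrees of freedom per gene plus 3.17 from the prior, so the few animals limit the precision. The procedure was tested on simulated data.

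The members and lists were chosen with earlier results of these data known. Values on every array are given for up to 3 members of largest absolute difference in each role and for separated ones of at least 0.3. Of the further decay factors, the 6 of largest difference are named. Members with probe sets of opposite sign are named where described. Promoter sequences are from RefSeq, GRCm38.p6. Alternatives covered the brightness filter, the choice of probe set, normalization, the variance model, a replicate block and leaving out each array.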

Additional observations from a re-analysis of the deposited data

How the results depend on the processing

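No decay factor, among the 50 members or the 38 further ones, passed under any of the alternatives run (no filter, the lowest 60% left out, mean or brightest probe sets, quantile normalization, 2 other variance models, the replicate block, each array left out); the members also had 0 calls with every probe set tested on its own. Over all genes, 2 were called in the reported fit, 0 with the replicate block and between 0 and 38 with an array left out (38 without Cnot3+/- 1). The labels give the replicate numbers no further meaning. Deviations of same-numbered arrays correlated at 0.16 over all genes and 0.54 over the members, and 2 pairs are too few to tell whether this reflects a pairing. Members had 0 calls both without and with the block, which leaves fewer residual degrees of freedom, so their calls do not bear on a pairing. The median difference of the members, 0.05, was 0.026 with quantile normalization, and with an array left out ran between 0.037 (wild-type 1) and 0.17 (wild-type 2). Members with a positive difference numbered 30, but 27 with quantile normalization and 31 to 34 with an array left out. With the lowest 60% left out they numbered 28, over fewer members, since the dim Ago4 and Dcp1b, both on the higher side, did not pass that filter. Members above wild-type without overlap numbered 15, but 11 with quantile normalization and with probe sets averaged, and 21 to 29 with an array left out. Those below numbered 4, but 6 with quantile normalization and 3 with probe sets averaged, and 8 to 15 with an array left out. With 3 arrays non-overlap is easier to reach, so these counts grow by construction.

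Of 282 single differences under the other alternatives, 15 reversed. The 282 include the 2 other variance models and the replicate block, which leave each difference unchanged by construction and so could not reverse it. All 15 came from averaging a gene's probe sets or from its other single probe sets. With a gene's probe sets averaged, Xrn1 was 0.17, Lsm1 0.057, Exosc8 0.00353, Zfp36l2 -0.070, Gigyf2 -0.17 and Cnot3 0.040. On single probe sets, Tnrc6c was -0.053, Ago4 -0.012, Dcp1a -0.00451, Xrn1 0.43, Lsm1 0.21, Exosc8 0.26, Pan3 -0.29 and Zfp36l2 -0.26 and -0.011. With an array left out, 13 of 124 reversed, and the ranges were -0.53 to 0.36 for Xrn1, -0.25 to 0.069 for Lsm1, -0.53 to 0.18 for Exosc7, -0.11 to 0.34 for Smg6, -0.045 to 0.70 for Khsrp, -0.083 to 0.21 for Zfp36l2 and -0.36 to 0.30 for Cnot3. The cause of these reversals was not tested. The counts by role with an array left out were chosen after seeing the data. The 2 animals per genotype limit every value, and array signal near background compresses differences.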
